A study of Mus musculus with 38 samples.

Results

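Col14a1, Dcn, Cxcl12, Clu and Rcn3 are 5 genes usually named with the connective tissue cells of the spleen, and their levels were followed in the spleen cells of mice given the alkylating drug cyclophosphamide. The probes were those whose gene in the array's probe table is 1 of these 5. Each gene had 1 probe, so the set is 5 of the 9616 genes that the table names, and all 5 probes were among the 8319 measured well enough to be tested. The genes were chosen by measured values. Col14a1, Clu and Rcn3 were picked for their difference between day 1 and untreated mice, Col14a1 also for day 2, and Dcn and Cxcl12 as stroma genes with a difference on day 1. The differences of days 1 and 2 from untreated mice are therefore given as a description, with no test. The same holds for day 5 against day 1 or untreated mice, and for Col14a1 also against day 2, since those mice took part in the choice.

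The stroma of the spleen is built by fibroblast-like reticular cells that lay down collagen fibres and secrete the chemokines which place lymphocytes and hold blood-forming cells. Collagen XIV, the product of Col14a1, and decorin, the product of Dcn, sit on the surface of collagen fibrils. Cxcl12 encodes a chemokine that acts through the receptor Cxcr4, Clu encodes the secreted chaperone clusterin, which follicular dendritic cells also make, and Rcn3 encodes a calcium-binding protein of the endoplasmic reticulum.

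All mice were of the DBA/2 strain. Spleen cells came from 5 untreated mice and from mice taken 1 day (4 mice), 2 days (5 mice) or 5 days (5 mice) after 83 mg/kg cyclophosphamide. Sex and age of the mice, and how the spleens were made into cells, are not stated by the labels. Each mouse was measured in 2 technical columns on 2-colour arrays, 38 columns in all. Whether the columns of a mouse are separate slides or repeated spots of a slide is not stated by the labels, so their correlation may leave out the variation between slides. Each value is the log2 ratio of Cy5-labelled spleen RNA to a Cy3-labelled pool of bone marrow cells from DBA/2 mice. The labels call the marrow pool untreated in one field and give the drug in another, and as it is common to all arrays it cancels between groups. The untreated group had no vehicle injection that the labels record. Since the RNA comes from whole spleen cell preparations, a lower ratio from fewer cells of a type and one from less RNA per cell cannot be told apart.

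Promoter sequences of 2 of the 5 genes, Cxcl12 and Rcn3, were in the RefSeq table used here (GRCm38.p6), and they are shown because these genes were followed together with the others across mice. Both are the 250 bases before the start that the promoter table uses, on the gene's own strand, with the motifs that were found in capitals. For Rcn3 that start lies inside the span that RefSeq's gene table gives, so the window overlaps the 5′ end of the gene. The Cxcl12 promoter lies at chr6:117168285-117168534 on the plus strand, has 64.4% G and C, and holds 5 copies of the GC box GGGCGG, read on either strand, of which a pair overlaps by a base. The Rcn3 promoter lies at chr7:45092214-45092463 on the minus strand, has 53.2% G and C, and holds 2 CCAAT boxes, both on the opposite strand, and 1 GC box.
Cxcl12: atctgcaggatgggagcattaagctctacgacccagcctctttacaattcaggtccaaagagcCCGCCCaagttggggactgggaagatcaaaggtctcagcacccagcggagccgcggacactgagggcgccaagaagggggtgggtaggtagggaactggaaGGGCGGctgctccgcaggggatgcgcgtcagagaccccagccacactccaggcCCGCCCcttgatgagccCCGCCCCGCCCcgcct
Rcn3: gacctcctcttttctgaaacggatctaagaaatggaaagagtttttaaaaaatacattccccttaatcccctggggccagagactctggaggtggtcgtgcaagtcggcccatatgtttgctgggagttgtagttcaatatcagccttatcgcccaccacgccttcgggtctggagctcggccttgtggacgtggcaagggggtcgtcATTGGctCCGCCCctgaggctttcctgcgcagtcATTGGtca
The motifs searched on both strands were the TATA box (TATAAA), the box CCAAT, the GC box (GGGCGG) and the AP-1 site (TGANTCA), and neither the TATA box nor the AP-1 site was in these windows. Of 27025 promoters of this length, 32.9% held the GC box, 34.5% the box CCAAT, 13% the TATA box and 6.87% the AP-1 site.

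In untreated mice the marker lists of T cells and B cells lay above 0 in 5 of 5 mice (means 0.33 ± 0.14 and 0.48 ± 0.16, SD) and that of neutrophils below 0 in 5 of 5 (-2.31 ± 0.44), so the values were read as spleen over marrow. The correlation between the 2 columns of a mouse was under 0.7 in 3 mice, at 0.581 in untreated mouse 4, 0.651 in untreated mouse 2 and 0.673 in day 5 mouse 5, and values without these mice are given beside several results. A column held 5829 to 10407 values. The median standard error of a difference over all probes was 0.174 to 0.183 on the log2 scale and sets, with the few mice of each group, how fine a difference can be read.

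The label of splenic stroma had little to stand on outside the 5 genes. Of 20 markers listed for reticular stroma and smooth muscle, 19 were on the array and 7 could be tested. Several of the defining markers were hardly measured, with a value in 0 of 38 columns for Tcf21, 1 for Des, Madcam1 and Acta2, 2 for Pdgfra and Il33, and 9 for Pdpn. The mean ratio of the 7 tested markers lay near 0 in untreated mice (-0.05 to 0.21) and was 0.04 to 0.55 in day 1 mice, -0.20 to 0.73 in day 2 mice and -0.11 to 0.74 in day 5 mice. None of the 7 (Angpt1, Il7, Kitl, Pdgfrb, Serpinf1, Tagln and Vcam1) passed the test in any comparison. Tagln, a smooth muscle actin-binding protein, differed most on day 1, at 0.70 ± 0.46 (SE). The 5 genes are therefore called by their names here, and not as a measure of stroma.

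Col14a1 had ratios of 1.48, 1.04, 1.33, -0.22 and 1.24 in untreated mice and of 2.60, 2.05, 2.55 and 2.54 on day 1. On day 2 the values were 2.78, 2.12, 3.00, 1.79 and 2.60, and on day 5 they were 1.23, 2.03, 1.14, 1.49 and 0.99. All mice of days 1 and 2 lay above every untreated mouse, and the day 5 mice lay among and just above the untreated ones. The group means were 0.97 ± 0.69 without treatment, 2.44 ± 0.26 on day 1, 2.46 ± 0.50 on day 2 and 1.38 ± 0.41 on day 5 (SD). Day 1 stood 1.46 ± 0.30 (SE) above untreated mice on the log2 scale, a 2.76-fold difference, and day 2 stood 1.49 ± 0.28 above them. Day 2 and day 1 differed in mean by 0.02, with an interval of -0.60 to 0.65.

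Col14a1 was lower in the day 5 mice than in the day 2 mice, a description with no test, since the day 2 mice had helped to choose the gene, which favours a negative difference. The day 5 mean was 1.38 against 2.46 on day 2, a difference of -1.08 ± 0.28 (SE, 95% interval -1.67 to -0.49), which is 2.12-fold lower. Of the day 5 mice 4 lay below all day 2 mice, and mouse 2, at 2.03, was within their range. The difference was -0.65 with quantile normalization of the arrays, -0.71 with the spread of the arrays made equal and -0.99 without the 3 mice of low technical correlation.

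Against day 1, Col14a1 was lower in every day 5 mouse, with no overlap and a difference of -1.06 ± 0.30 on the log2 scale (interval -1.68 to -0.44). Of all tested probes 2.34% lay wholly lower on day 5 than on day 1. Against untreated mice, day 5 differed by 0.40 ± 0.28 (interval -0.18 to 0.99), and by 0.11 without untreated mouse 4. The choice of all 5 genes on the day 1 and untreated mice favours a negative difference in the first of these comparisons and a positive one in the second.

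Dcn, whose protein binds collagen and transforming growth factor beta, had 1.81, 0.82, 0.87, 0.29 and 1.17 in untreated mice and 1.79, 1.70, 2.41 and 3.07 on day 1. It had 2.50, 2.57, 1.61, 1.24 and 2.03 on day 2 and 1.00, 2.84, 1.02, 1.25 and 0.26 on day 5. The groups overlapped on every day, and day 5 mouse 2 stood far above the other mice of its group. The means were 0.99 ± 0.56 without treatment, 2.24 ± 0.64 on day 1, 1.99 ± 0.57 on day 2 and 1.27 ± 0.95 on day 5 (SD). Day 1 was higher than untreated by 1.25 ± 0.41 (SE, 2.38-fold) and day 2 by 1.00 ± 0.39. Day 5 differed from day 2 by -0.71 ± 0.39 (interval -1.52 to 0.10, adjusted p = 0.348, limma), from day 1 by -0.97 ± 0.41 and from untreated mice by 0.28 ± 0.39. Without day 5 mouse 2 these differences were -1.11, -1.36 and -0.11.

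Cxcl12 had the lowest ratios of the set. It had 0.37, 0.47, 0.70, -0.41 and 0.76 in untreated mice and 2.25, 1.68, 1.18 and 2.08 on day 1, so that all mice of day 1 lay above all untreated mice. On day 2 the values were 2.17, 1.94, 0.94, -0.27 and 2.54, and on day 5 they were 1.26, -0.04, -0.18, 1.31 and -0.57. Day 2 mouse 4 was as low as the untreated mice, and of the day 5 mice 2 lay above 1 and 3 below 0. The means were 0.38 ± 0.47 without treatment, 1.80 ± 0.48 on day 1, 1.46 ± 1.14 on day 2 and 0.36 ± 0.87 on day 5 (SD). Day 1 was higher than untreated by 1.42 ± 0.47 (SE, 2.67-fold) and day 2 by 1.09 ± 0.44. Day 5 was level with untreated mice in mean, with a difference of -0.02 ± 0.44 that turned positive in several fits (0.16 from the second technical column alone) and an interval of -0.95 to 0.90. Day 5 differed from day 2 by -1.11 ± 0.44 (interval -2.03 to -0.18, p = 0.0212, adjusted p = 0.173, limma), which did not pass over all probes, and from day 1 by -1.44 ± 0.47. With 1 mouse left out at a time the difference from day 2 was -1.54 to -0.84 (adjusted p = 0.0207 to adjusted p = 0.353, limma). Only 1 of these 19 runs passed, the one without day 2 mouse 4, which gave -1.54.

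Clu had the highest ratios of the set, and in untreated mice 4 of the 8319 tested probes had a higher mean ratio to the marrow pool, which is a ratio and not an abundance. It had 2.87, 2.70, 1.64, 2.52 and 3.45 in untreated mice and 4.96, 4.37, 3.19 and 4.02 on day 1. On day 2 the values were 3.73, 3.11, 4.58, 3.76 and 4.29, and on day 5 they were 3.78, 4.32, 2.52, 4.07 and 3.50. The highest untreated mouse overlapped with the lowest mice of days 1 and 2, and on day 5 mouse 3 was the only one inside the untreated range. The means were 2.64 ± 0.66 without treatment, 4.13 ± 0.74 on day 1, 3.89 ± 0.57 on day 2 and 3.63 ± 0.70 on day 5 (SD). Day 1 was higher than untreated by 1.50 ± 0.39 (SE, 2.82-fold) and day 2 by 1.26 ± 0.37. On day 5 the Clu mean stood 1.00 ± 0.37 above that of untreated mice (2-fold, interval 0.23 to 1.76), with 4 of 5 mice above all untreated mice. That is a description with no test, since the choice of Clu on the untreated mice favours a positive difference. The interval is not adjusted for the number of probes. The lowest untreated value, 1.64 in mouse 3, averaged columns of 2.77 and 0.52. Without that mouse the difference from untreated mice was 0.75 on day 5 and 1.01 on day 2. Without day 5 mouse 3 the day 5 difference was 1.28. Between day 5 and day 2 the difference was -0.26 ± 0.37 (interval -1.03 to 0.51, adjusted p = 0.778), and it was 0.04 with quantile normalization and 0.45 with arrays of equal spread, so it has no settled direction. Day 5 and day 1 differed by -0.50 ± 0.39.

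Rcn3, which in mice has been tied to collagen handling in the endoplasmic reticulum, had 1.76, 1.36, 1.12, 0.59 and 0.12 in untreated mice and 2.14, 2.52, 2.52 and 2.90 on day 1, with no overlap. It had 2.62, 2.40, 1.21 and 3.05 in day 2 mice 1, 2, 4 and 5, no value in day 2 mouse 3, which the fit leaves out, and 1.21, 2.66, 0.86, 2.23 and 1.46 on day 5. Day 2 mouse 4 was the low one of its group, as it was for Col14a1, Dcn and Cxcl12. The means were 0.99 ± 0.65 without treatment, 2.52 ± 0.31 on day 1, 2.32 ± 0.79 on day 2 (n = 4) and 1.69 ± 0.74 on day 5 (SD). Day 1 was higher than untreated by 1.53 ± 0.38 (SE, 2.89-fold) and day 2 by 1.33 ± 0.38. Day 5 lay between, at -0.63 ± 0.38 from day 2 (interval -1.44 to 0.17, adjusted p = 0.412, limma), -0.83 ± 0.38 from day 1 and 0.70 ± 0.36 from untreated mice (interval -0.06 to 1.45).

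**Figure D1:**
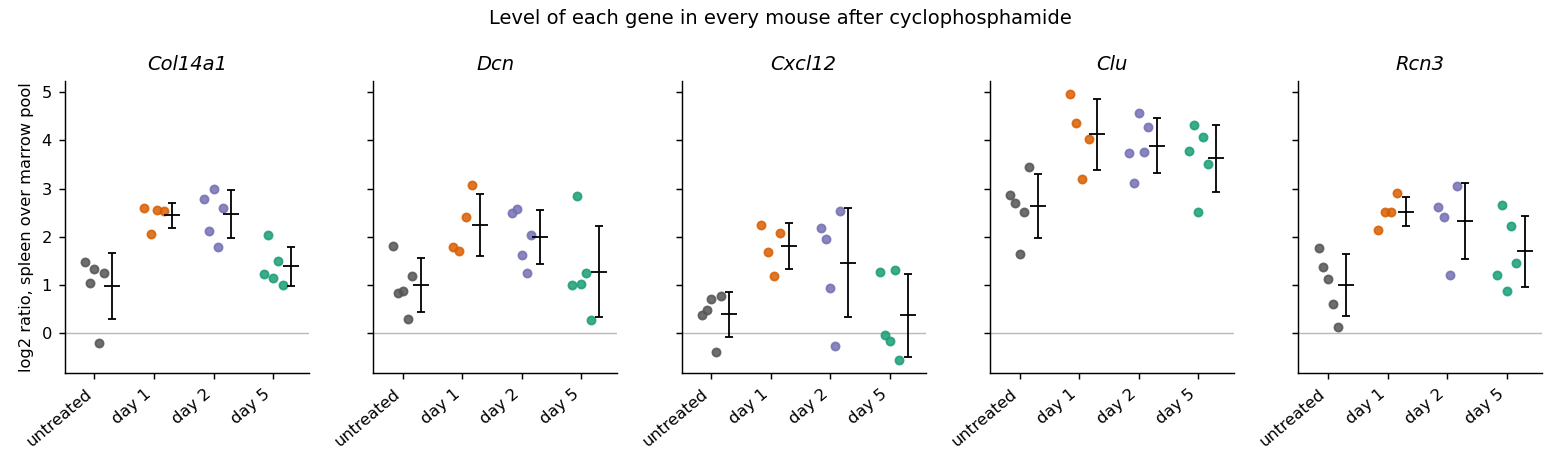
Log2 ratio of spleen over marrow pool (vertical axis) for each of the 5 genes in every mouse (points) of the untreated, day 1, day 2 and day 5 groups, with the group mean and SD beside the points. Every gene has its highest group mean on day 1 or day 2, and on day 5 Col14a1, Dcn and Cxcl12 lie nearest to untreated mice while Clu stays at a mean of 3.63 against 2.64 in untreated mice.

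On day 1 the 5 genes shared a size of difference, between 1.25 and 1.53 on the log2 scale, and at these values Col14a1, Clu and Rcn3 were among the 194 probes (2.33% of those tested) past the threshold, as their choice fixed. In 3 of the 5, Col14a1, Cxcl12 and Rcn3, the day 1 mice lay wholly above the untreated mice, which held for 4.24% of all tested probes in that direction. On day 2 the differences from untreated mice ran from 1.00 to 1.49, where 8.31% of all probes passed and 3.31% rose. These day 2 sizes depend on the scaling of the arrays. They were 0.57 to 0.91 with quantile normalization and 0.42 to 0.92 with equal spread, with Col14a1 at 0.91 and 0.92, Dcn at 0.57 and 0.45 and Clu at 0.73 and 0.42. Col14a1 alone lay wholly above the untreated mice on day 2, beside 3.86% of all probes. The 2 days share their untreated mice, so these values are not independent of each other. Without the 3 mice of low technical correlation the day 1 differences were 1.09 for Col14a1, 0.96 for Dcn, 1.19 for Cxcl12, 1.48 for Clu and 1.52 for Rcn3.

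On day 5 the differences from day 2 ran from -0.26 for Clu to -1.11 for Cxcl12. Over all alternative settings and left-out mice they were -1.33 to -0.65 for Col14a1, -1.11 to -0.37 for Dcn and -1.54 to -0.73 for Cxcl12. For Rcn3 they were -1 to -0.17 and for Clu -0.46 to 0.45. Of the 4 genes that day 2 did not choose, Dcn, Cxcl12, Clu and Rcn3, 0 passed by limma, in a comparison where 5.3% of all probes passed and 1.5% fell. Cxcl12 alone had an unadjusted p under 0.05, a looser threshold than that of these shares, so the 2 cannot be set side by side. Against untreated mice the day 5 differences ran from -0.02 for Cxcl12 to 1.00 for Clu. Whether the genes differ from each other in their course was not tested, and their intervals overlapped. The comparisons share the day 5 mice.

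**Figure D2:**
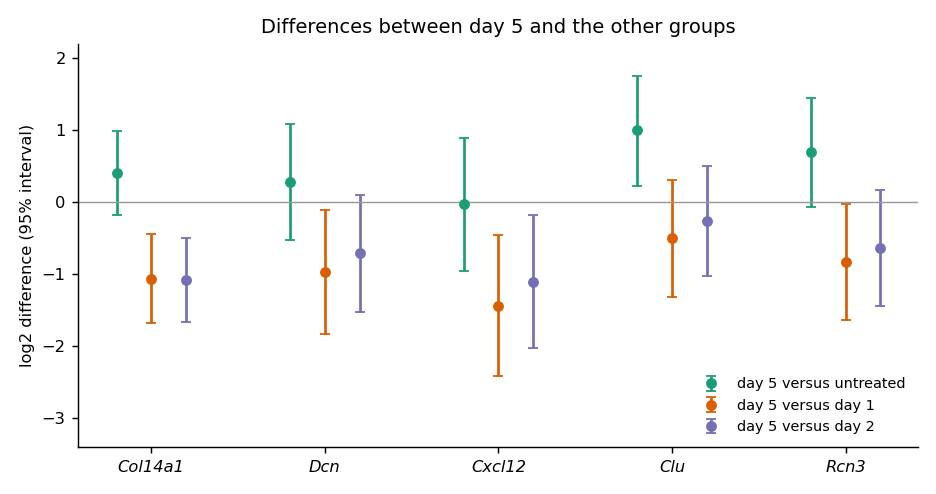
Difference in log2 ratio (vertical axis) of day 5 from untreated, day 1 and day 2 mice for each gene, as points with 95% intervals from the limma fit. Against day 1 the intervals of all genes but Clu lie below 0, and against untreated mice that of Clu alone lies above 0, at 1.00. The choice of the genes on those mice favours these directions, so they are a description with no test. Against day 2 the intervals of Col14a1 and Cxcl12 lie below 0, at -1.08 and -1.11. Col14a1 was chosen on day 2 as well, and Cxcl12 did not pass over all probes (adjusted p = 0.173, limma).

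The spread between mice of a group was wide for all 5 genes. The pooled SD within groups was 0.499 for Col14a1, 0.702 for Dcn, 0.806 for Cxcl12, 0.662 for Clu and 0.656 for Rcn3, larger than that of 92.6% to 99.1% of the tested probes. The 2 columns of a mouse followed each other, with a correlation over mice of 0.858 for Cxcl12 to 0.97 for Rcn3. The largest gaps between the columns of a mouse were 2.25 for Clu in untreated mouse 3, 1.69 for Cxcl12 in day 2 mouse 3 and 1.24 for Dcn in untreated mouse 2.

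Whether the genes move together from mouse to mouse was asked with the mean of each group removed, which takes out the differences between days by which the genes were chosen. With 10 pairs compared, the correlation was above 0 in 10 of 10, with a mean of 0.39 ± 0.12 (jackknife SE over mice), and with quantile normalization 1 pair, Dcn with Clu, turned to -0.23. Over the 14005278 pairs of 5293 probes with a value in every mouse the median correlation was 0.00697, with 5% of pairs at or below -0.459 and 5% at or above 0.505. These probes do not include Rcn3 and were not matched to the 5 genes, whose spread within groups was wider than that of most probes. Whether the mean correlation is unusual for genes of such spread was not tested. All 5 genes were read on the same arrays, so the 19 points share their libraries.

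Dcn and Rcn3 were the closest pair, with Pearson's r = 0.65 (permutation p = 0.00858, adjusted p = 0.0429) and Spearman's rho = 0.64 (permutation p = 0.00952, adjusted p = 0.0577) over 18 mice. Col14a1 and Dcn, both fibril-associated matrix genes, had r = 0.62 (permutation p = 0.00536, adjusted p = 0.0429) and rho = 0.59 (permutation p = 0.0142, adjusted p = 0.0577) over 19 mice. Col14a1 and Rcn3 had r = 0.59 (permutation p = 0.0259, adjusted p = 0.0863) and rho = 0.62 (permutation p = 0.0173, adjusted p = 0.0577). These 3 genes had the 3 highest correlations of the set, 2 of the 10 pairs passed by Pearson and 0 by Spearman, and 3 had an unadjusted permutation p under 0.05 by each measure.

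Without the 2 mice farthest from the median of the first gene, r was 0.58 for Dcn and Rcn3, 0.55 for Col14a1 and Dcn and 0.56 for Col14a1 and Rcn3, so these relations kept their direction without the extreme mice, and no pair then passed after adjustment. Without the 3 mice of low technical correlation r was 0.54 for Col14a1 and Dcn, which no longer passed (permutation, adjusted p = 0.214), 0.74 for Col14a1 and Rcn3, which then passed (permutation, adjusted p = 0.0398), and 0.70 for Dcn and Rcn3 (permutation, adjusted p = 0.0398). One technical column of the first gene set against the other column of the second, averaged over both choices, gave 0.63 for Dcn and Rcn3, 0.50 for Col14a1 and Dcn and 0.50 for Col14a1 and Rcn3. Leaving out 1 mouse at a time, Dcn and Rcn3 passed in 7 of 19 runs and Col14a1 and Dcn in 8 of 19. Day 5 mouse 2 was high in all 3 genes, by 1.57 for Dcn, 0.97 for Rcn3 and 0.65 for Col14a1 relative to its group mean, and without it r was 0.54 for Dcn and Rcn3 and 0.53 for Col14a1 and Dcn. Day 2 mouse 4 was low in all 3, at -0.75 for Dcn, -1.11 for Rcn3 and -0.67 for Col14a1.

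Cxcl12 followed the other genes less closely in these mice, and a difference between correlations was not tested. Its r was 0.44 with Rcn3 (adjusted p = 0.3, rho 0.32), 0.42 with Col14a1 (adjusted p = 0.227, rho 0.32) and 0.34 with Dcn (adjusted p = 0.309, rho 0.43), all by permutation. Without the 2 mice farthest in the first gene of each pair (Cxcl12, Col14a1 and Dcn in turn) these became 0.07 with Rcn3, -0.04 with Col14a1 and 0.59 with Dcn. The first 2 values thus rest on the mice left out for that pair, which need not be the same mice. Clu had the lowest values, at 0.32 with Col14a1 (adjusted p = 0.309, rho 0.41), 0.22 with Cxcl12 (adjusted p = 0.477, rho 0.30), 0.19 with Rcn3 (adjusted p = 0.521, rho 0.24) and 0.08 with Dcn (adjusted p = 0.777, rho 0.06), again by permutation. Without the 2 mice farthest in the first gene (Col14a1, Cxcl12, Clu and Dcn in turn) these were 0.43, 0.23, 0.05 and -0.15. The mean correlation of a gene with the other 4 was 0.49 for Col14a1, 0.47 for Rcn3, 0.42 for Dcn, 0.36 for Cxcl12 and 0.20 for Clu.

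**Figure D3:**
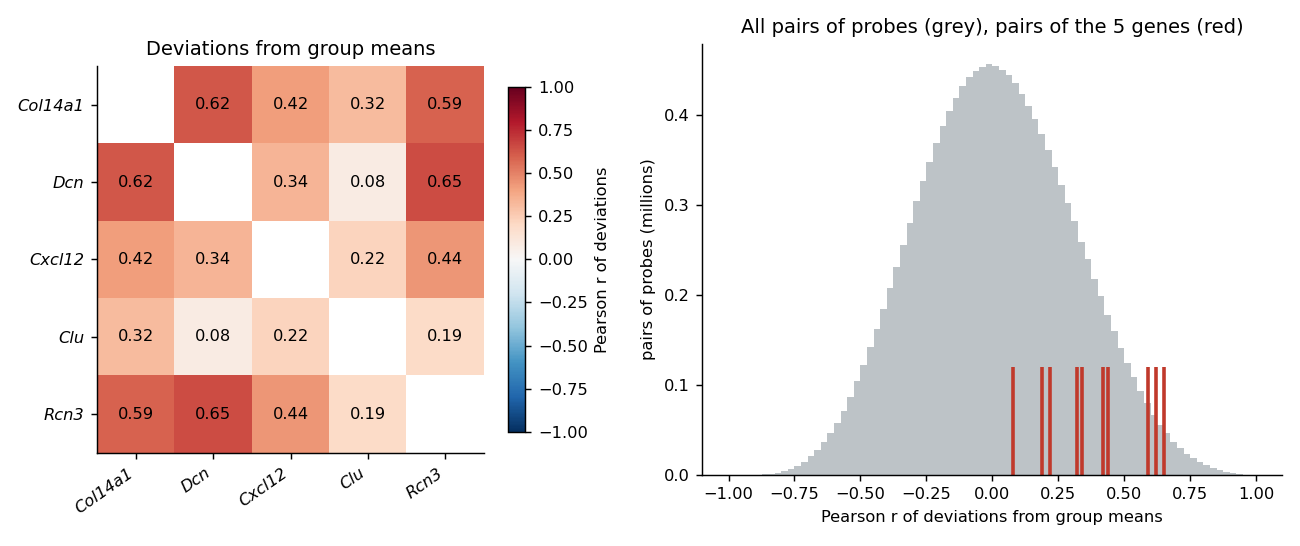
Left, Pearson's r between the genes over mice with group means removed (colour scale from -1 to 1). Right, the number of pairs of all 5293 fully measured probes (vertical axis, scaled as its label says) by r, with the 10 pairs of the 5 genes as red lines between 0.08 and 0.65, against a median of 0.00697 over all pairs. The probes do not include Rcn3 and were not matched to the 5 genes in spread.

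**Figure D4:**
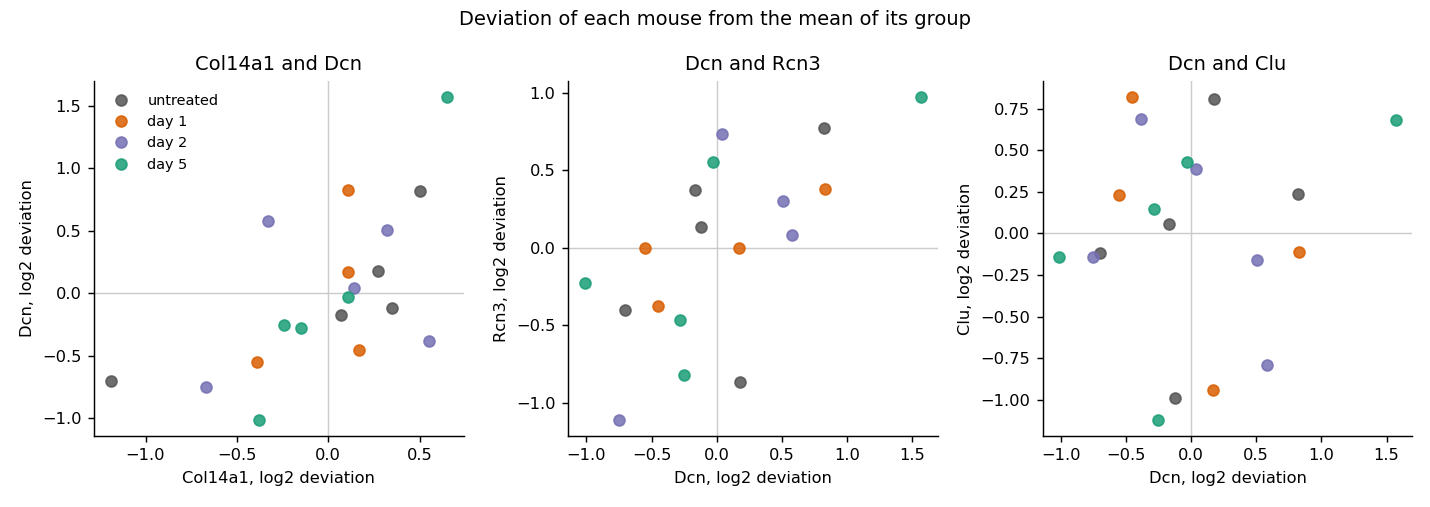
Deviation of each mouse from its group mean on the log2 scale, for Dcn (vertical) against Col14a1, Rcn3 (vertical) against Dcn, and Clu (vertical) against Dcn, with the groups in colour. The first and second panels slope upward (r = 0.62 and r = 0.65) with day 5 mouse 2 at the upper right, and the third shows no slope (r = 0.08).

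The genes named as most like each of the 5 within groups were all outside the set. Rcn3 could not be among them, as it has no value in day 2 mouse 3. Among single-gene probes with a value in every mouse, Col14a1 was closest to Aebp1, a collagen-binding carboxypeptidase-like matrix protein (r = 0.86 over 19 mice), and then to S100a16 (0.82), Il18bp (0.80), Arpc5l (0.79) and Batf3 (0.79). Dcn ranked 71 of 3808 for Col14a1, and Col14a1 ranked 78 of 3808 for Dcn. For Rcn3, Dcn ranked 49 and Col14a1 ranked 113 of 3808. Dcn was closest to Ift43 (0.84), Pycard (0.79), Rtp4 (0.78), Mrpl27 (0.78) and Mef2b (0.77).

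Cxcl12 was closest to F11r, a junctional adhesion molecule (0.85), Serpinb6a (0.84), Il17rc (0.83), Pla2g4a (0.82) and Inppl1 (0.82). Clu was closest to Plekho1 (0.90), Masp2 (0.84), Bag1 (0.82), Psmc2 (0.81) and Ccr6 (0.81). Rcn3 was closest to Pf4, a platelet chemokine (0.82 over 18 mice), Id3 (0.82), Clec14a (0.81), Cd7 (0.80) and Slamf1 (0.78). These values are descriptions, since each is among the highest of 3808 genes on the same arrays. Of the 5 genes closest to Col14a1, Il18bp alone passed between day 5 and day 2, at -0.95 (adjusted p = 0.0183, limma). Of those closest to Dcn, Rtp4 alone did, at -0.65 (adjusted p = 0.0112). None of those closest to Cxcl12, Clu and Rcn3 passed in that comparison, where 5.3% of all probes passed and 1.5% fell.

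Other collagen genes ran in both directions. Of 17 collagen genes listed, 15 were on the array and 12 were tested. On day 1 against untreated mice 0 passed, with a median difference of 0.19 beside 0.0233 over all probes. The day 1 differences ran from -0.78 to 0.47, so the largest was downward. In that comparison 1 collagen gene was called lower with quantile normalization and 1 with arrays of equal spread. On day 2 against untreated mice 3 passed, all lower, where 5% of all probes fell. Col8a1 fell by 1.58 ± 0.30 (SE) on the log2 scale, Col5a1 fell by 0.84 ± 0.19 and Col5a3 fell by 0.81 ± 0.18. The same 3 rose on day 5 against day 2, where 3.8% of all probes did, by 1.57 ± 0.30 for Col8a1 (adjusted p = 0.00314, limma), 1.01 ± 0.18 for Col5a3 (adjusted p = 0.002) and 0.79 ± 0.19 for Col5a1 (adjusted p = 0.0177). These comparisons share the day 2 mice. The direction of all 3 is opposite to that of Col14a1 and held under the other scalings of the arrays, although with quantile normalization only Col5a3 passed between day 5 and day 2. The fibrillar collagen gene Col1a1 differed by 0.41 ± 0.21 on day 1 and Col5a2 by 0.47 ± 0.25, and neither passed. Col5a2 averaged 0.47 without treatment, 0.94 on day 1, 1.03 on day 2 and 0.63 on day 5, highest on the same days as Col14a1, and passed in no comparison.

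Among matrix proteoglycans and glycoproteins 11 of 24 listed genes were tested. Thbs2, which encodes the matrix protein thrombospondin 2, was high on the same days as Col14a1. It averaged 1.02 on day 1 and 0.87 on day 2, against 0.16 in untreated mice, and 0.16 on day 5. It rose on day 1 by 0.85 ± 0.20 (adjusted p = 0.0239, limma) and on day 2 by 0.71 ± 0.20 (adjusted p = 0.0298) against untreated mice. On day 5 it fell by 0.71 ± 0.19 against day 2 (adjusted p = 0.0309) and by 0.85 ± 0.19 against day 1 (adjusted p = 0.0349), where 0.914% of all probes changed and 0.301% fell. All 4 calls were lost with quantile normalization and with arrays of equal spread (0.72 on day 1 and -0.57 between day 5 and day 2 with quantile normalization). Thbs2 was the only one of the 11 to pass in any comparison. Mgp, the matrix Gla protein, averaged 1.83 on day 5 against 3.33 on day 2, a difference of -1.50 ± 0.59 that did not pass (adjusted p = 0.16), and Lox, which crosslinks collagen, differed by -0.45 ± 0.20 (adjusted p = 0.226).

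Genes that fold and process collagen in the endoplasmic reticulum, where the Rcn3 protein resides, had 6 of 14 members tested and none passed in any comparison (limma). Serpinh1, the collagen chaperone Hsp47, averaged 1.85 on day 2 against 0.54 in untreated mice, a difference of 1.31 ± 0.43 (adjusted p = 0.0707), and differed by -1.25 ± 0.41 between day 5 and day 2 (adjusted p = 0.0851). Crtap, of the collagen prolyl 3-hydroxylation complex, differed by 0.45 ± 0.17 on day 1 (adjusted p = 0.204). Rcn3 belongs to the CREC family of calcium-binding proteins, and its relatives Rcn1, Rcn2, Sdf4 and Calu were all tested. On day 1 they differed from untreated mice by -0.02 to 0.09, where Rcn3 differed by 1.53, and none passed in any comparison.

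The receptors of the Cxcl12 and Dcn products were measured in part. Of the Cxcl12 receptors Cxcr4 and Ackr3 and the protease Dpp4, which cleaves it, none passed. Cxcr4 lay below the marrow pool throughout, at -0.48 on day 1, against -1.19 in untreated mice, a difference of 0.71 ± 0.39 (adjusted p = 0.464). Ackr3, which removes the chemokine, differed by 0.51 ± 0.16 between day 5 and day 2 (adjusted p = 0.0652). Cxcl13, the chemokine of B cell follicles and the only one of 3 homeostatic chemokines that was tested, differed by 1.11 ± 0.67 on day 1 (adjusted p = 0.525).

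Of 5 tested genes among 10 ligands and receptors of decorin, Tgfbr2, the type II receptor of transforming growth factor beta, rose on day 2 against untreated mice by 0.53 ± 0.14 (adjusted p = 0.0206, limma). It fell by 0.53 ± 0.14 between day 5 and day 2 (adjusted p = 0.0297). Both calls were lost with quantile normalization (0.28 and -0.33). Met, the receptor of hepatocyte growth factor, differed by 0.41 ± 0.16 on day 2 (adjusted p = 0.142). Of 6 response genes of that growth factor only Ccn2 was tested, at 0.48 on day 2, which did not pass, and 0 of 4 clusterin receptors were tested.

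**Figure D5:**
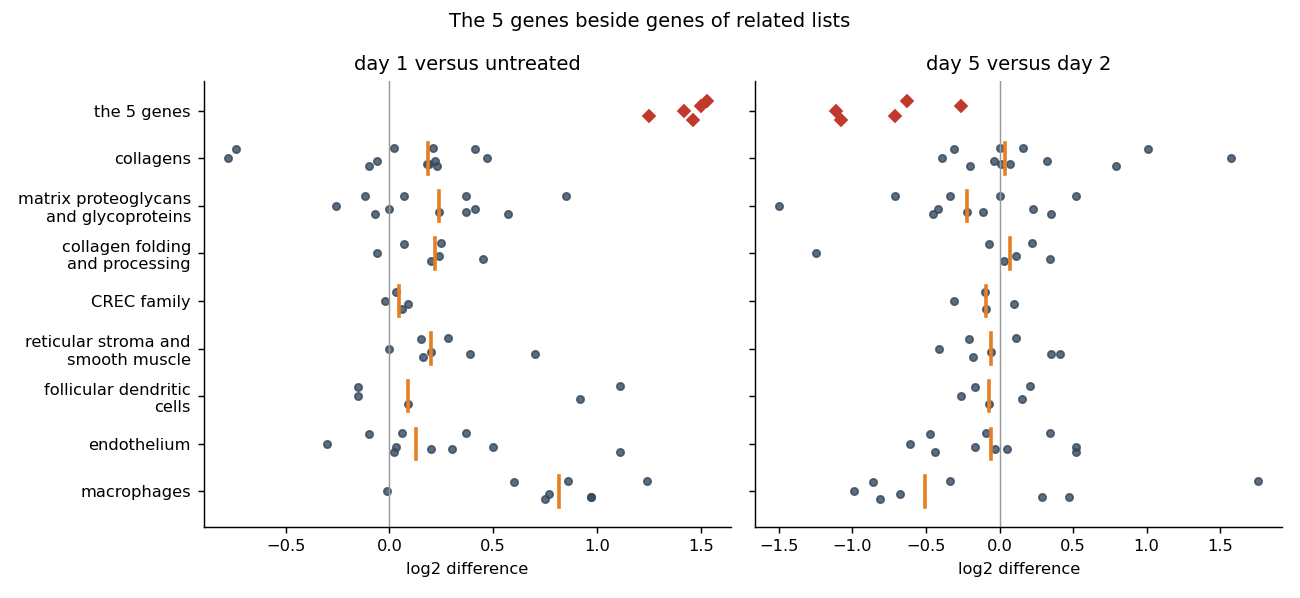
Log2 difference (horizontal axis) of day 1 from untreated mice (left) and of day 5 from day 2 (right) for the 5 genes (red diamonds) and the tested genes of related lists (points, with the list median as a bar). The 5 genes lie between 1.25 and 1.53 on the left, beyond most genes of each list, as their choice fixed, and between -1.11 and -0.26 on the right, where 3 collagen genes lie far to the other side.

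Markers of other cells moved between the same groups. Macrophage genes, 8 tested of 12, had a median difference of 0.82 on day 1, and their mean ratio was 1.18 to 1.82 in day 1 mice, 1.07 to 1.75 in day 2 mice and 0.90 to 1.54 in day 5 mice, against 0.39 to 1.06 in untreated mice. Siglec1, a macrophage receptor, rose against untreated mice by 0.77 ± 0.16 on day 1 (adjusted p = 0.0124, limma) and by 1.24 ± 0.15 on day 2 (adjusted p = 2.22e-05). It fell by 0.99 ± 0.15 between day 5 and day 2 (adjusted p = 0.000427). Slc40a1, the iron exporter, and Mrc1, the mannose receptor, also rose on day 2, by 1.25 ± 0.26 and 1.08 ± 0.31. C1qa, of the complement C1q complex, rose by 1.76 ± 0.44 between day 5 and day 2. With quantile normalization the calls of Siglec1 on day 1 (0.42) and of Siglec1 between day 5 and day 2 (-0.58), Slc40a1 (0.74) and Mrc1 (0.87) were lost.

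Red cell precursor genes went the other way. Of 10 tested, 4 fell on day 1 (1.39% of all probes did) and 6 on day 2 (5% did) against untreated mice, and 5 rose between day 5 and day 2 (3.8% did). With quantile normalization these counts were 4, 4 and 2, and with equal spread they were 2, 3 and 3. Alas2, which starts the making of heme in erythroid cells, fell by 3.94 ± 0.32 on day 2 and rose by 3.49 ± 0.32 between day 5 and day 2. The mean ratio of the list was -1.66 to -0.85 in day 1 mice, -2.16 to -1.18 in day 2 mice and -0.68 to 0.13 in day 5 mice, against -0.48 to -0.10 in untreated mice. The part of macrophages and of red cell precursors in the differences of the 5 genes was not tested.

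Endothelial genes, 10 tested of 18, had a mean ratio of 0.48 to 0.62 in day 1 mice, 0.26 to 0.73 in day 2 mice and 0.23 to 0.90 in day 5 mice, against 0.21 to 0.55 in untreated mice. Robo4 rose on day 2 by 0.71 ± 0.20 (adjusted p = 0.0283, limma), and between day 5 and day 2 Eng rose by 0.52 ± 0.14 (adjusted p = 0.0303) and Sox17 fell by 0.61 ± 0.18 (adjusted p = 0.0492). With quantile normalization Eng kept its call, and those of Robo4 (adjusted p = 0.0731) and Sox17 (adjusted p = 0.113) were lost. Of 5 tested markers of follicular dendritic cells, cells that also make clusterin, none passed, with Mfge8 at 0.92 ± 0.41 on day 1 (adjusted p = 0.312). Their mean ratio was 1.00 to 1.51 in day 1 mice, 0.93 to 1.65 in day 2 mice and 0.82 to 1.83 in day 5 mice, against 0.50 to 1.65 in untreated mice.

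The 6 remaining lists were of blood cells. Among monocyte genes (3 tested) F13a1 fell by 0.85 ± 0.22 on day 2 against untreated mice and rose by 1.25 ± 0.22 on day 5 against them, and with arrays of equal spread the day 2 difference turned to 0.12. On day 5 it rose by 2.10 against day 2 (adjusted p = 5.41e-06, limma) and by 1.99 against day 1 (adjusted p = 0.000104), and both calls held with equal spread (adjusted p = 0.0373 and adjusted p = 0.0288). Against untreated mice 0.0721% of all probes changed on day 5. Among neutrophil genes (4 tested) Ltf rose by 1.48 ± 0.42 between day 5 and day 2, and among B cell genes (6 tested) Cd22 and Ms4a1 fell between these days, by 0.96 ± 0.16 and 0.66 ± 0.18. Itga2b, of platelets and megakaryocytes (4 tested), rose by 0.85 ± 0.21 on day 2 and by 1.11 ± 0.20 on day 5 against untreated mice. Of 5 T cell and 4 plasma cell genes none passed in any comparison. Against untreated mice 1 plasma cell gene was called lower on day 2 and 1 on day 5 with quantile normalization, and 1 on day 2 with equal spread. The T cell list lacked several defining markers, with a value in 0 of 38 columns for Cd2, 2 for Cd3d and 3 for Cd3e. With quantile normalization the calls of F13a1, Ltf, Cd22 and Ms4a1 were lost, and so was that of Itga2b on day 2.

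The median deviation of each marker list from its group mean was set against the 5 genes from mouse to mouse. Of 60 relations, the 5 genes with 11 lists and with the spread of all values in a mouse, 2 passed by Pearson and the same 2 by Spearman. Cxcl12 followed the T cell list, with r = 0.87 (permutation p = 0.00041, adjusted p = 0.0207) and rho = 0.82 (permutation p = 0.00072, adjusted p = 0.0432) over 19 mice. Rcn3 followed the list of follicular dendritic cells, with r = 0.83 (permutation p = 0.00069, adjusted p = 0.0207) and rho = 0.78 (permutation p = 0.00148, adjusted p = 0.0444) over 18 mice. Without the 2 mice farthest from the median of the list r was 0.80 for Cxcl12 (permutation p = 0.0045, 17 mice) and 0.71 for Rcn3 (permutation p = 0.0166, 16 mice). Without the 3 mice of low technical correlation 0 of the 60 passed.

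The list of reticular stroma and smooth muscle had r = 0.68 with Cxcl12 (adjusted p = 0.128) and r = 0.54 with Clu (adjusted p = 0.153), and 0.27 with Col14a1, 0.23 with Dcn and 0.34 with Rcn3, by the same permutation test. The macrophage list had r = 0.78 with Cxcl12 (adjusted p = 0.0622), 0.64 with Rcn3, 0.58 with Dcn, 0.48 with Col14a1 and 0.25 with Clu, and none of these passed. The endothelial list had r = 0.61 with Dcn (adjusted p = 0.128). With the 2 mice farthest from the list's median left out, the macrophage list had r = 0.77 with Col14a1 (permutation p = 0.00013, not adjusted). It then had 0.77 with Cxcl12, 0.65 with Dcn, 0.49 with Rcn3 and 0.42 with Clu. The same step gave the stroma list 0.57 with Cxcl12 and 0.43 with Clu, and the endothelial list 0.73 with Dcn. The spread of all values in a mouse, a measure of the arrays and not of a cell type, had r from 0.29 with Clu to 0.52 with Rcn3 (adjusted p = 0.237 to adjusted p = 0.464). The part of these lists and of the spread in the relations among the 5 genes was not tested.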

How the data were processed

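Spleen cell RNA of 19 mice was measured in 38 array columns, 2 for each mouse, which the labels call technical replicates without saying if they are separate slides. Per the labels' protocols, RNA was extracted with a Qiagen RNeasy Midi kit, amplified with an Ambion amino allyl kit and labelled with Cy5, and the marrow reference with Cy3. All 38 columns had this orientation. What the authors deposited are log2 ratios, Cy5 spleen over Cy3 marrow. The base is taken as 2. They are bounded at 6 in size (7 values) and centred by array (medians -0.0212 to 0.0132). The labels name no background correction, normalization, software or batch, so no batch was tested. Of all values 63.2% are present, and a missing value was left missing.

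The probe table gives 1 gene for 10032 of 13443 probes, several for 170 and none for 3241. The symbols of 10028 probes were looked up through gene IDs in RefSeq's table (GRCm38.p6). Both technical columns were averaged per mouse. A probe was tested if 3 or more mice had a value in every group, which kept 8319 probes (61.9%). The test was limma's (version 3.58.1, R 4.3.3) with eBayes, at prior degrees of freedom of 5.52. All 4 groups shared the spread, p-values are two-sided, adjusted by Benjamini-Hochberg over all tested probes, and the threshold is 0.05. Intervals are 95%. The labels call the mice biological replicates and say no more of their origin, so p-values measure the spread between these samples.

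Correlations within groups used deviations from group means and 100000 shuffles of mice within groups, two-sided, adjusted over 10 pairs or over 60 relations to marker lists. The steps were tested on simulated data. Replicate numbers were not used to pair mice, since over 27 same-numbered pairs the mean correlation of deviations was 0.00199 (-0.253 to 0.349). Members and the 20 gene lists were chosen with earlier results of these data known. Named are all members, the 5 genes most like each, and list genes past the threshold or with the smallest p. Alternatives were other scalings, single columns, filters, variance models, array weights, a block, subsets of groups and left-out mice. The marker relations under other settings were chosen after seeing the data. Permutations ran in numpy 2.4.6 under Python 3.11.15, with plots from matplotlib 3.10.9.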

Additional observations from a re-analysis of the deposited data

Results flagged for a closer look

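For the 5 genes 20 groups of 4 or 5 mice were looked at for a mouse far from the others of its group, which chance gives in about 1 of 20 groups, and 2 were found, both for Col14a1. In untreated mouse 4 its log2 ratio was -0.22, where the other untreated mice had 1.04 to 1.48. That mouse also had the lowest correlation between its technical columns, 0.581. In day 1 mouse 2 the ratio was 2.05, where the other day 1 mice had 2.54 to 2.60, and its columns correlated at 0.903. Without untreated mouse 4 the Col14a1 difference of day 1 from untreated mice was 1.17 in place of 1.46, and that of day 5 from untreated mice was 0.11 in place of 0.40.

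Col14a1 stood at -1.08 on day 5 against day 2. Its day 2 values had helped to choose it, so the difference is a description with no test, and it was -0.65 with quantile normalization and -0.71 with arrays of equal spread.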

How the results depend on the processing

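Of 1500 values recomputed under alternatives, 1358 kept their direction and side of the threshold, 103 lost the threshold or fell in count, 20 passed or rose in count, 4 moved by more than the spread and 15 changed sign. The cause was not tested. The probes changed on day 1 against untreated mice (194) were 117 with arrays of equal spread, 452 with the mouse as a random effect, 350 with array weights, 123 without the 3 mice of low technical correlation and 109 to 224 with 1 mouse left out. On day 2 against untreated mice (691) they were 338 with quantile normalization, 353 with equal spread, 441 with only the groups compared, 450 without the 3 mice and 501 to 690 with 1 mouse left out. On day 5 against untreated mice (6) they were 0 with equal spread, with the second technical column alone, with a variance trend and with the replicate block, 24 with the random effect, 1 with only the groups compared, 1 without the 3 mice and 0 to 6 with 1 mouse left out. Between day 2 and day 1 (5) they were 0 with quantile normalization and with equal spread, 27 with the random effect, 20 with array weights, 3 with the replicate block, 1 with only the groups compared and 3 to 11 with 1 mouse left out. Between day 5 and day 1 (76) they were 32 with equal spread, 226 with the random effect, 135 with array weights and 32 to 86 with 1 mouse left out. Between day 5 and day 2 (441) they were 83 with quantile normalization, 144 with equal spread, 730 with the random effect and 299 to 479 with 1 mouse left out. On day 2 against untreated mice Col14a1 (1.49) was 0.91 with quantile normalization and 0.92 with equal spread, and Clu (1.26) was 0.42 with equal spread. Of single genes, Dcn on day 5 against untreated mice was -0.11 to 0.53 with 1 mouse left out, the lowest without day 5 mouse 2. Cxcl12 in that comparison was 0.16 from the second column alone and -0.26 to 0.21 with 1 mouse left out, with 0.00, 0.06 and 0.07 without untreated mouse 2, 3 or 5 and 0.08, 0.11 and 0.21 without day 5 mouse 2, 3 or 5. Clu between day 5 and day 2 was 0.04 with quantile normalization, 0.45 with equal spread and -0.46 to 0.02 with 1 mouse left out, the highest without day 5 mouse 3. Dcn with Clu had r = -0.23 with quantile normalization, -0.15 without the 2 farthest mice and -0.16 to 0.18 with 1 mouse left out, the lowest without day 5 mouse 2, and Col14a1 with Cxcl12 had -0.04 without the 2 farthest mice. The mean r over pairs was 0.26 with quantile normalization and 0.31 to 0.43 with 1 mouse left out. With the replicate block, which rests on numbers that do not pair the mice, Col14a1 between day 5 and day 2 was -1.08, and 3 of 10 pairs passed in place of 2. Pairs past the threshold were 0 with quantile normalization and 1 with either technical column alone. Col14a1 and Dcn lost it without untreated mouse 1, 3 or 4, day 1 mouse 2 or 4, day 2 mouse 1 or 4 or day 5 mouse 1, 2, 4 or 5 (adjusted p = 0.051 to adjusted p = 0.176, permutation), and Dcn and Rcn3 without the same mice or day 1 mouse 1 (adjusted p = 0.051 to adjusted p = 0.2, permutation). The relations to marker lists that passed (2) were 1 with quantile normalization, 6 with equal spread, 7 and 1 with the first and second column alone and 0 without the 3 mice. Rcn3 gave no value when probes had to be measured in all mice.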
